A study of Mus musculus with 10 samples.

Results

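The genes described here are 10 markers and regulators of dendritic cells: Irf8, Batf3, Zbtb46, Flt3, Xcr1, Clec9a, Itgae, Itgax, Cd209a and Ccr7. They were taken by gene name from a table of estimated counts for 37882 genes, where each had 1 row, and 9 of the 10 passed the expression filter that left 14063 genes. The set was selected on the treatment comparison of these same libraries: Irf8 was chosen by its low level under TMA-ARB, being among the lower genes of smallest unadjusted p, and the others as dendritic cell genes beside it. The treatment differences of the 10 genes are therefore given as a description, without a test.

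Dendritic cells take up antigen, carry it to lymph nodes and show it to T cells. Conventional dendritic cells grow under the cytokine Flt3l and fall into a cross-presenting class (cDC1), which needs the transcription factors IRF8 and BATF3 and primes CD8+ T cells against tumours, and the cDC2 class, which, with monocyte-derived dendritic cells, mostly serves CD4+ T cells. IRF8 is not restricted to dendritic cells: monocytes, macrophages and B cells make it too, and CD11c, the product of Itgax, is also found on macrophages.

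RNA was measured in 10 orthotopic mammary tumours that had been seeded with the mouse mammary cancer line MCa-M3C in FVB/N hosts. The 5 control libraries came from mice given PBS. The 5 TMA-ARB libraries came from mice given an angiotensin receptor blocker made to be activated in the tumour microenvironment, at 40 mg/kg of valsartan. Both were injected into the retro-orbital vein daily for 6 days, from a tumour volume of about 100 mm3, and no genotype or age is given in the sources used here.

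Control libraries are replicates 1 to 5 and TMA-ARB libraries are replicates 6 to 10. Whether every library is its own animal is not stated, and p-values therefore cover only the spread between libraries. Library totals ran from 12742953 to 16884621 counts. Mitochondrially encoded genes took from 2.07% to 24.97% of the counts. Their share averaged 4.19% ± 2.21 in control libraries and 10.5% ± 9.12 in treated ones (SD, n = 5; two-sided exact permutation p = 0.143, smallest possible 0.00794). Without TMA-ARB replicate 6 the difference widened from 6.31 to 8.38 points (exact permutation p = 0.0397), and without TMA-ARB replicate 9 it narrowed to 2.69. Replicates 1, 2, 5, 6 and 7 lay below 5% and replicates 3, 4, 8, 9 and 10 above it, so values are also given on each side of that line. The 7 epithelial markers examined summed to 124 ± 30.8 CPM in control and 180 ± 60.2 in treated libraries. Krt18 (101 ± 30.4 and 131 ± 51.3), Krt8 (11.1 ± 3.86 and 25.9 ± 18.4), Krt19 (3.16 ± 3.95 and 12.8 ± 21.9) and Epcam (1.96 ± 0.991 and 3.31 ± 4.95) had higher means in treated libraries and Cdh1 a lower one. Cldn4 and Esrp1 had only 52 and 39 counts in all libraries together. CPM are counts scaled to the library size after TMM normalization.

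No gene separated the groups after adjustment. The quasi-likelihood test of edgeR passed 0 of 14063 genes (0%) at the adjusted threshold of 0.05. Unadjusted, 457 genes had p under 0.05 (3.25%), of which 233 were lower under TMA-ARB (1.66%). DESeq2 called 2 genes and limma-voom 0, and no gene of the set was among them. Under TMA-ARB 9 of the 10 genes had a lower mean and Xcr1 a higher one. Of the 9 that passed the filter, 8 had a negative log2 fold change, with a median over the 9 of -0.57, whereas 47.2% of all tested genes were negative and their median was 0.021. For 6 genes (Irf8, Batf3, Clec9a, Itgae, Itgax and Ccr7) all 5 TMA-ARB libraries lay below the control mean, a pattern shown by 6.04% of tested genes. Irf8 was the 1 gene of the set whose groups did not overlap, as in 0.363% of tested genes. The set was chosen with this comparison known, so nothing is read from these counts.

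**Figure D1:**
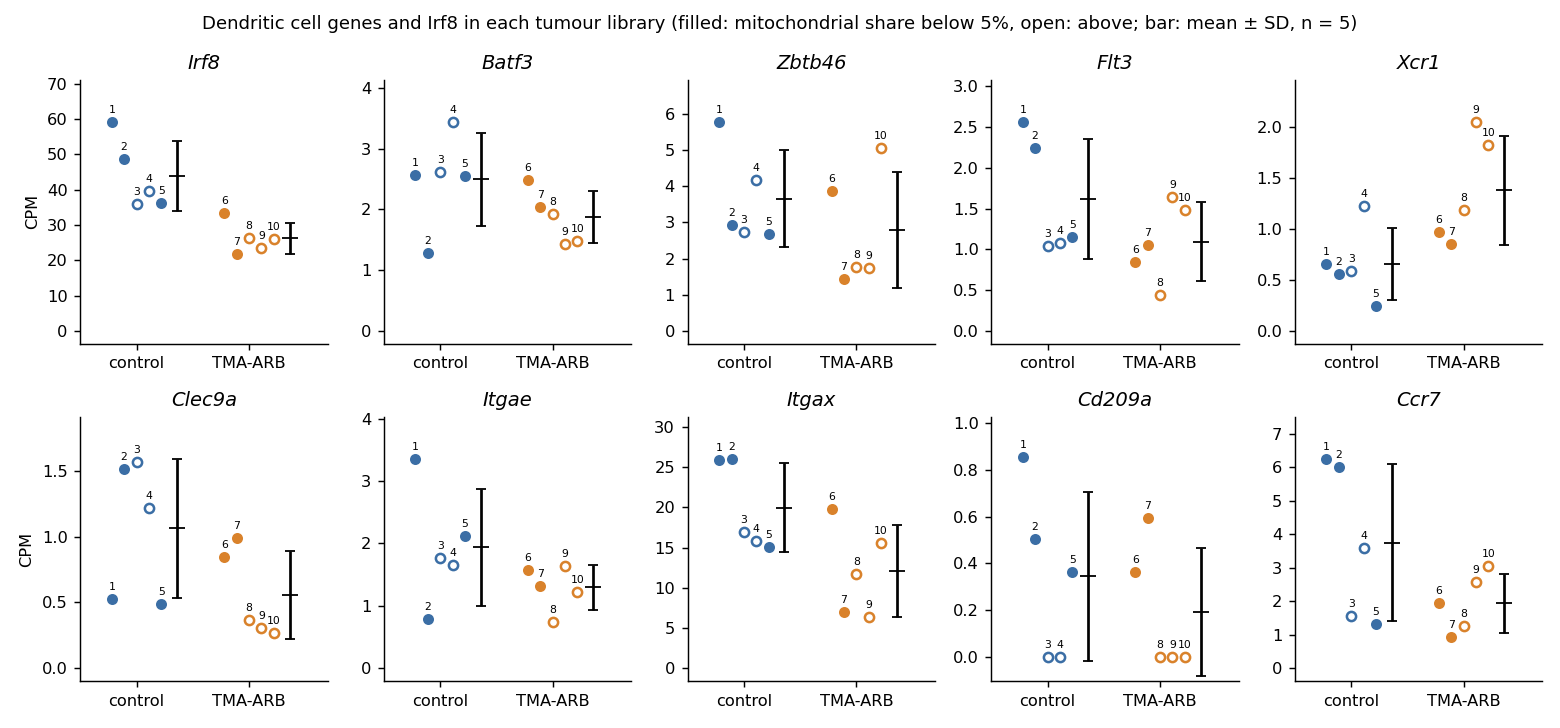
CPM of each gene in each library, with the replicate number beside each point, filled points for a mitochondrial share below 5% and open points above, and bars for mean ± SD (n = 5). Irf8 lies between 36.03 and 59.2 CPM in controls and between 21.7 and 33.4 under TMA-ARB, Xcr1 runs the other way, and Cd209a is at 0 in the 5 libraries with open points.

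Irf8 was the most abundant, per kilobase of exon, of the 3 transcription factor genes of the set. The gene lies on chromosome 8 from 120736358 to 120756694 on the plus strand (mm10; GENCODE mouse release 21). A predicted gene, Gm20388, spans it on the same strand without sharing an exon and held 16509 counts of its own, against 5317 for Irf8. In control replicates 1 to 5 Irf8 measured 59.2, 48.5, 36.03, 39.6 and 36.1 CPM, and in TMA-ARB replicates 6 to 10 it measured 33.4, 21.7, 26.3, 23.6 and 26.01 CPM. The highest treated library lay below the lowest control, and controls 1 and 2 stood above the other 3. Means were 43.9 ± 9.97 and 26.2 ± 4.45 CPM (SD, n = 5), a log2 fold change of -0.74 ± 0.19 (SE). In bulk tumour RNA, fewer cells carrying the gene and less of its RNA per cell cannot be told apart.

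On the 2 sides of the mitochondrial line the Irf8 values were as follows, a description that the choice of the gene and its non-overlapping groups fix in direction. Below 5%, the 3 controls ran from 36.1 to 59.2 CPM and the 2 TMA-ARB libraries from 21.7 to 33.4. Above it, the 2 controls ran from 36.03 to 39.6 and the 3 TMA-ARB libraries from 23.6 to 26.3. Over 19 other settings the log2 fold change ran from -0.84 without TMA-ARB replicate 6 to -0.59 in the libraries above the line. By counting error alone the 2 libraries nearest each other could not be ordered: the exact 95% Poisson interval was 33.1 to 39.2 CPM for control replicate 3 and 30.7 to 36.3 for TMA-ARB replicate 6, whereas that of TMA-ARB replicate 7 was 19.4 to 24.2.

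Promoter sequence is shown for 3 genes: Irf8 and Itgax, which were low in largely the same libraries, and Xcr1, which was not. Each run holds the 250 bases before the RefSeq start site, 5' to 3' on the gene's strand (GRCm38.p6, the assembly of mm10). Windows were found for 8 of the 10 genes, all but Itgae and Ccr7. Capitals mark matches to 4 motifs searched on both strands: the interferon-stimulated response element core (GAAA, any 2 bases, GAAA), the composite ETS-IRF element (GGAA, any 2 bases, GAAA), the gamma-activated sequence TTCNNNGAA bound by STAT factors, and the AP-1 site TGANTCA, on which BATF family proteins can bind.
Irf8 (chr8:120736108-120736357, plus strand): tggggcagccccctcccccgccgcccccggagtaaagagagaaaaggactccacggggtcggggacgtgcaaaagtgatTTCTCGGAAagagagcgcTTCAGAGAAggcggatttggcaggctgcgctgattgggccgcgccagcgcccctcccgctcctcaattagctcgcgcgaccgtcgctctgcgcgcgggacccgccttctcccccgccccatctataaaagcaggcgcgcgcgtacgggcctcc
Itgax (chr7:128129300-128129549, plus strand): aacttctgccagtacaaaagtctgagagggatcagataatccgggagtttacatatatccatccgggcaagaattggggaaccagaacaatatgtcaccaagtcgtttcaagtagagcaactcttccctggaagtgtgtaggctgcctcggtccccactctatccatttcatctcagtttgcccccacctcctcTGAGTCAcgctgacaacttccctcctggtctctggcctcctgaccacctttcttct
Xcr1 (chr9:123862030-123862279, minus strand): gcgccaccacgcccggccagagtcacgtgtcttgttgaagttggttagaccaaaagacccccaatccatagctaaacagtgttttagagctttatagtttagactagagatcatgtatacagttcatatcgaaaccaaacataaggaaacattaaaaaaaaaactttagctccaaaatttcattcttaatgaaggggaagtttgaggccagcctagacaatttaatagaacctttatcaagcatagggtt

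The Irf8 window shown held 2 gamma-activated sequences, TTCTCGGAA at -171 to -163 and TTCAGAGAA at -153 to -145 from its start site. The window of the other RefSeq start site of Irf8 (chr8:120738389-120738638) held none of the 4 motifs. This motif occurs in 7.02% of 32851 RefSeq windows of the same length. The Itgax window held 1 AP-1 match, TGAGTCA at -56 to -50, a motif found in 6.75% of windows. Of the windows not shown, that of Zbtb46 (chr2:181424389-181424638, minus strand) also held an AP-1 match (TGACTCA, -61 to -55). This window lies well inside the GENCODE gene, whose 5' end is at 181459426, so it precedes an internal RefSeq start. The Batf3 window (chr1:191098164-191098413, plus strand) held a gamma-activated sequence (TTCCACGAA, -239 to -231). It too lies inside its GENCODE gene, which starts at 191097847. The Xcr1 window held none of the 4 motifs. Neither the response element core nor the ETS-IRF element matched in any window of the set, against 2.98% and 2.3% of windows. A match is a run of letters and not a measured binding site.

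Batf3 and Zbtb46, the other transcription factor genes of the set, were measured at far lower counts. Batf3 (chromosome 1, 191097847 to 191108945, plus strand) encodes the partner of IRF8 in the cross-presenting lineage. It measured 2.56, 1.29, 2.62, 3.44 and 2.55 CPM in control replicates 1 to 5, and 2.48, 2.04, 1.92, 1.44 and 1.49 CPM in TMA-ARB replicates 6 to 10. The groups overlapped because control 2 was the lowest of all 10 libraries. The log2 fold change was -0.41 ± 0.42 (SE), but it was 0.09 in the libraries below the mitochondrial line and -0.91 in those above it. It was -0.25 without control replicate 4.

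Zbtb46 (chromosome 2, 181387762 to 181459426, minus strand) encodes a zinc finger factor found in conventional dendritic cells and not in monocytes. Its control values were 5.79, 2.92, 2.75, 4.16 and 2.67 CPM and its TMA-ARB values 3.88, 1.45, 1.77, 1.74 and 5.07 CPM. TMA-ARB replicates 7, 8 and 9 lay below every control, whereas replicates 6 and 10 were among the 4 highest of the 10 libraries. The log2 fold change of -0.39 ± 0.45 (SE) was the smallest in size among the tested genes of the set. By limma-voom it was -0.004. Leaving out control replicate 1 gave -0.16, and leaving out TMA-ARB replicates 7, 8, 9 or 10 gave -0.21, -0.25, -0.25 or -0.70.

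Flt3 (chromosome 5, 147330741 to 147400489, minus strand) encodes the receptor tyrosine kinase through which Flt3l expands dendritic cell precursors. It measured 2.56, 2.24, 1.05, 1.08 and 1.15 CPM in controls, and 0.848, 1.05, 0.443, 1.64 and 1.49 CPM under TMA-ARB. Controls 1 and 2 were the highest, and the other 3 controls lay within the TMA-ARB range. Its log2 fold change was -0.57 ± 0.53 (SE), with -1.06 below the mitochondrial line, 0.15 above it, -0.28 by limma-voom, -0.34 without control replicate 1 and -0.37 when TMA-ARB replicate 8 was left out. The ligand gene Flt3l measured 5.95 ± 1.595 CPM in control and 5.26 ± 1.54 in treated libraries, a log2 fold change of -0.18 ± 0.32 (edgeR adjusted p = 0.997). With a library left out the Flt3l value ran from -0.32 (control replicate 2) to -0.05 (TMA-ARB replicate 9), and by limma-voom it was 0.02.

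Of 12 genes for dendritic cell growth factors and their receptors, 10 were tested and 0 passed the adjusted threshold. Of these 8 had negative fold changes and the list's median was -0.27. The genes of smallest p were Csf2rb2 and Csf2rb, which encode beta chains of cytokine receptors, and Kit, the receptor of stem cell factor. Csf2rb2 measured 18.03 ± 7.12 CPM in control and 11.6 ± 3.28 in treated libraries, and its log2 fold change was -0.64 ± 0.29. Csf2rb was at -0.55 ± 0.37 and Kit at -0.56 ± 0.35, and the edgeR adjusted p was 0.997 for all of them. Csf2rb was at -0.25 without control replicate 1 and at -0.03 with the mitochondrial covariate, where Csf2rb2 was at -0.33, and Kit was at -0.24 without control replicate 2.

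Xcr1 (chromosome 9, 123852315 to 123862029, minus strand) encodes the chemokine receptor that marks cross-presenting dendritic cells and binds the chemokine Xcl1. It measured 0.657, 0.561, 0.588, 1.22 and 0.243 CPM in controls, and 0.969, 0.855, 1.18, 2.05 and 1.82 CPM under TMA-ARB. All 5 TMA-ARB libraries lay above the control mean of 0.654 ± 0.354 CPM, and the groups overlapped through control 4 alone. These levels rest on 4 to 17 counts per control and 13 to 27 per TMA-ARB library, and the exact 95% Poisson intervals of control 1 (0.315 to 1.21 CPM) and TMA-ARB replicate 8 (0.676 to 1.92) overlapped.

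The log2 fold change of Xcr1 was 1.06 ± 0.57 (SE), the 1 positive value of the set. Over 18 other settings it ran from 0.68 in a fit with the mitochondrial share as a log2 covariate to 1.60 by limma-voom. Across the 10 libraries Xcr1 correlated with the log2 mitochondrial share at r = 0.69, and at 0.60 with each group's mean removed. The part of that share in the Xcr1 values was not tested. The ligand gene Xcl1 measured 1.38 ± 0.451 CPM in control and 1.38 ± 0.496 in treated libraries, a log2 fold change of -0.003 ± 0.49 (edgeR adjusted p = 0.999).

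Clec9a (chromosome 6, 129408862 to 129424763, plus strand) encodes a lectin by which cross-presenting dendritic cells recognise actin exposed on dead cells. It shares exonic sequence with Clec1b on the same strand, which held 70 counts, so the division of reads between them is uncertain. Clec9a measured 0.526, 1.51, 1.57, 1.22 and 0.485 CPM in controls, and 0.848, 0.987, 0.369, 0.308 and 0.270 CPM under TMA-ARB. Controls 2, 3 and 4 lay above every TMA-ARB library, and controls 1 and 5 lay inside the TMA-ARB range. The log2 fold change was -0.91 ± 0.63 (SE). It was -2.12 in the libraries above the mitochondrial line, where the TMA-ARB libraries held 3 to 5 counts, and 0.11 in those below it.

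Xcr1 and Clec9a mark the same dendritic cell class, yet their mean differences had opposite signs, and neither has a test here. Their r over the 10 libraries was -0.43, and -0.10 with group means removed, as a description of log2 CPM values that share their library's depth and low counts. Batf3 correlated with Clec9a at 0.34 and with Xcr1 at -0.34.

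Of 20 other genes listed for cross-presenting dendritic cells, 15 were tested and 0 passed (adjusted). All 15 had negative fold changes, against 47.2% of all genes tested, with a median of -0.18. The list counts Xcl1, at -0.003, which turned positive with RLE scaling (0.009) and without mitochondrial genes (0.004). Tlr12, a Toll-like receptor for parasite profilin, measured 3.00 ± 1.33 CPM in control and 0.894 ± 1.32 in treated libraries. It lay at 3.21 CPM in TMA-ARB replicate 6 and at 0.591 or less in the other 4 treated libraries. Its log2 fold change was -1.71 ± 0.83, with -3.17 without replicate 6, -0.98 below the mitochondrial line and -2.69 above it. Tlr3, an endosomal receptor for double-stranded RNA, was at -0.44 ± 0.24 (-0.25 without control replicate 4), and Naaa, a lysosomal amidase gene, at -0.34 ± 0.17. Wdfy4, needed for cross-presentation of cell-associated antigen, measured 9.51 ± 3.09 and 6.85 ± 5.54 CPM, a log2 fold change of -0.47 ± 0.43 that was 0.10 below the mitochondrial line and -1.10 without TMA-ARB replicate 6 (edgeR adjusted p = 0.997 for each).

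Ccr7 (chromosome 11, 99144196 to 99155077, minus strand) encodes the receptor that brings mature dendritic cells to lymph nodes, and naive T cells carry it as well. It measured 6.25, 6.00, 1.57, 3.59 and 1.33 CPM in controls, and 1.94, 0.921, 1.26, 2.56 and 3.04 CPM under TMA-ARB. Controls 1, 2 and 4 were above all TMA-ARB libraries, and controls 3 and 5 lay among the lower TMA-ARB values. The log2 fold change was -0.95 ± 0.53 (SE), with -1.65 below the mitochondrial line, -0.18 above it and -0.14 by limma-voom. The summed CPM of 10 T cell markers ran from 14.8 to 28.0 in controls and from 9.93 to 22.1 under TMA-ARB. Their part in the Ccr7 values was not tested.

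The ligands of Ccr7 could hardly be measured in these tumours. Ccl19 was at 0 counts in all 10 libraries. Ccl21a held 1073 counts in all, of which 581 were in control replicate 3, 443 in TMA-ARB replicate 10 and 43 in TMA-ARB replicate 8. Its near-identical copies make the division of reads uncertain, and it was not tested. Of 9 ligand and dendritic cell-attracting chemokine genes, 4 were tested and 0 passed. Ccl3 was at -1.24 ± 0.69, Ccl4 at -0.92 ± 0.45 and Ccl5 at -0.39 ± 0.36 on the log2 scale (edgeR adjusted p = 0.997 for each). Ccl3 and Ccl4, chemokines that attract leukocytes, were both far higher in control replicate 2 (12.7 and 10.2 CPM) than in the other controls, and without that library Ccl3 was at -0.23 and Ccl4 at -0.41. Ccl5 was at -0.15 without control replicate 3 and at -0.19 without TMA-ARB replicate 7, and Ccl3 was at 0.32 above the mitochondrial line.

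Genes of mature and migratory dendritic cells were mostly lower in mean, and none passed. Of 24 such genes 18 were tested, with 13 negative and 5 positive fold changes and a median of -0.40. Cd200, a ligand that inhibits myeloid cells, measured 39.9, 43.0, 40.8, 45.0 and 39.6 CPM in controls, and 30.8, 35.9, 25.6, 32.9 and 33.0 CPM under TMA-ARB. Its groups did not overlap, as in 0.363% of tested genes, and its log2 fold change was -0.40 ± 0.15. Cd200 was named for its small p within the list, so nothing is read from the separation. Cxcl16, a membrane-bound chemokine, measured 82.9 ± 20.4 and 58.4 ± 13.6 CPM and was at -0.50 ± 0.21, and Fscn1, the actin-bundling fascin of mature dendritic cells, was at -0.41 ± 0.21 (edgeR adjusted p = 0.997 for all 3). Cxcl16 and Fscn1 are also made by other cell types of a tumour, and which cells made the Cd200 RNA was not tested.

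Il12b, the p40 subunit of interleukin-12 made by activated dendritic cells, was named after its values were seen. It held 6, 28, 0, 0 and 6 counts in controls and 1, 0, 0, 0 and 0 under TMA-ARB, too few to be tested. Il12a, the p35 subunit, was at 0 in every library.

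Itgax (chromosome 7, 128129547 to 128150657, plus strand) encodes the CD11c integrin chain and was the other well-counted gene of the set, with 2471 counts. In control replicates 1 to 5 it measured 25.9, 26.03, 17, 15.9 and 15.04 CPM, and in TMA-ARB replicates 6 to 10 it measured 19.8, 6.97, 11.7, 6.36 and 15.6 CPM. TMA-ARB replicates 7, 8 and 9 lay below every control, whereas replicate 6 exceeded 3 controls and replicate 10 exceeded control 5. Means were 19.97 ± 5.52 and 12.1 ± 5.73 CPM, a log2 fold change of -0.72 ± 0.32 (SE). Over 19 other settings it ran from -0.97 without TMA-ARB replicate 6 to -0.45 with the mitochondrial share as a covariate.

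Itgae (chromosome 11, 73090583 to 73147446, plus strand) encodes the CD103 chain of cross-presenting dendritic cells and of tissue-resident T cells. It measured 3.35, 0.785, 1.77, 1.65 and 2.12 CPM in controls, and 1.57, 1.32, 0.739, 1.64 and 1.22 CPM under TMA-ARB. Control 1 was the highest library and control 2 the second lowest, so the groups overlapped. The log2 fold change was -0.57 ± 0.50 (SE) and -0.28 without control replicate 1.

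The chains that pair with these integrins were measured at higher levels. Itgb2, the beta2 partner of CD11c, measured 62.8 ± 24.1 CPM in control and 49.8 ± 23.4 in treated libraries, a log2 fold change of -0.33 ± 0.37 that was 0.16 with the mitochondrial share as a covariate and -0.10 without TMA-ARB replicate 9. Itgb7, the partner of CD103, measured 86.0 ± 15.4 and 84.7 ± 22.3 CPM (log2 fold change -0.02 ± 0.22). Cdh1, the E-cadherin that CD103 binds, measured 7.04 ± 2.54 and 5.64 ± 4.70 CPM, with 13.9 CPM in TMA-ARB replicate 6 and at most 4.72 in the other treated libraries, and its log2 fold change went from -0.32 to -0.98 without that replicate. Of 11 integrin partners and ligands 9 were tested, all with negative fold changes (median -0.17), and 0 passed (edgeR adjusted p = 0.997 for each named here).

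Cd209a (chromosome 8, 3743397 to 3748984, minus strand) encodes a C-type lectin used as a marker of monocyte-derived dendritic cells. With 43 counts in all it did not pass the expression filter. Its counts were 13, 9, 0, 0 and 6 in controls and 6, 9, 0, 0 and 0 under TMA-ARB, or at most 0.855 CPM. The gene held 6 to 13 counts in each library below the mitochondrial line and 0 in each library above it, in both groups. A count of 0 allows up to 3 counts, which is 0.196 to 0.308 CPM in those 5 libraries. The upper 95% Poisson limit of TMA-ARB replicate 9, 0.378 CPM, lay above the 0.363 CPM of TMA-ARB replicate 6, so the shallowest library could not be told from the lowest of the others.

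Cd209c, a neighbouring lectin gene of the same family, was named after its values were seen. It measured 0.986 to 2.30 CPM in the 5 libraries below the line and 3.92 to 8.58 in the 5 above it, the opposite order to Cd209a. The family holds near-identical copies, so the estimates can divide reads between them, and its part in these zeros was not tested.

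Of 19 other genes of cDC2 and monocyte-derived dendritic cells, 12 were tested and 0 passed. Of these 10 had negative fold changes, with a median of -0.34. Cd7 was at -1.57 ± 0.61 with 1.78 ± 1.11 CPM in control and 0.586 ± 0.307 in treated libraries. Ly6c2, a monocyte surface antigen gene, was at -1.09 ± 0.57 (-1.68 without TMA-ARB replicate 6), and Cx3cr1, the fractalkine receptor gene, at -0.42 ± 0.27 with 0.04 below the mitochondrial line and -0.65 without TMA-ARB replicate 6 (edgeR adjusted p = 0.997 for each).

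**Figure D2:**
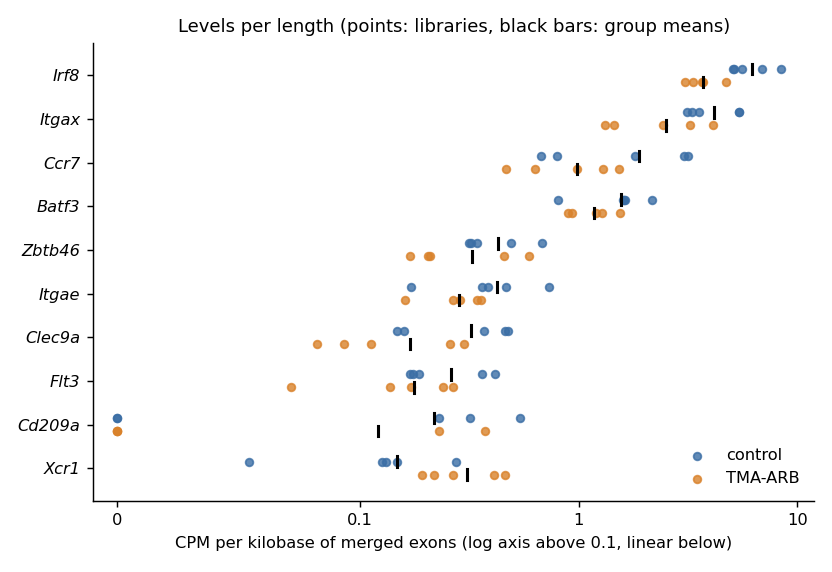
Level of each gene per kilobase of its merged exons in every library, on an axis that is logarithmic above 0.1 CPM per kilobase, with group means as black bars. Irf8 and Itgax lead in both groups, and Xcr1 is last in controls (mean 0.147) but ahead of Itgae under TMA-ARB (0.309 against 0.283).

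Compared per kilobase of exon, Irf8 and Itgax led the set in both groups. Control levels were 6.22 ± 1.41 CPM per kilobase for Irf8, 4.16 ± 1.15 for Itgax, 1.90 ± 1.18 for Ccr7 and 1.56 ± 0.482 for Batf3. The other 6 genes had control means from 0.430 for Zbtb46 down through Itgae, Clec9a, Flt3 and Cd209a to 0.147 for Xcr1. Each neighbour in this order overlapped with the next in its library values, except Batf3 (0.808 to 2.16) and Zbtb46 (0.314 to 0.680). Under TMA-ARB the leading levels were 3.71 ± 0.631 for Irf8 and 2.52 ± 1.19 for Itgax, and Xcr1 was the sixth gene, at 0.309 ± 0.119.

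Among interferon regulatory factor genes, Irf8 was neither the most nor the least abundant. Control levels per kilobase were 46.2 ± 6.05 for Irf1, 11.3 ± 1.58 for Irf3, 8.20 ± 2.49 for Irf5, 7.39 ± 1.501 for Irf7, 5.76 ± 0.166 for Irf9 and 3.52 ± 0.628 for Irf2. Irf4, the factor of cDC2, was far lower at 0.0975 ± 0.0787, with 57 counts in all and no test. Of the 6 family members tested besides Irf8, 5 had negative fold changes with a median of -0.10, and 0 passed. Irf7, which drives type I interferon in plasmacytoid dendritic cells, was at -0.38 ± 0.27, Irf9 at -0.18 ± 0.18 and Irf2 at -0.10 ± 0.23 (edgeR adjusted p = 0.997 for each). Without TMA-ARB replicate 7 Irf7 was at -0.20, Irf9 at -0.06 and Irf2 at 0.05, and without replicate 6 Irf7 was at -0.61.

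Of 21 other factors of dendritic cell development (transcription factors and the receptor Notch2) 19 were tested, 16 with negative fold changes and a median of -0.15, and 0 passed. Id2, an inhibitor of helix-loop-helix factors needed by cross-presenting dendritic cells, measured 33.6 ± 13.3 CPM in control and 20.7 ± 5.95 in treated libraries (log2 fold change -0.70 ± 0.28). Spi1, which encodes the myeloid factor PU.1 that binds DNA with IRF8, measured 50.02 ± 11.2 and 35.8 ± 13.2 CPM (-0.48 ± 0.25). Nfil3 was at -0.56 ± 0.30 (edgeR adjusted p = 0.997 for all 3), but at -0.35 without control replicate 2. In the libraries above the mitochondrial line Nfil3 was at 0.25, Id2 at -0.25 and Spi1 at -0.81. Below the line Spi1 was at -0.07 and Nfil3 at -1.36. With the mitochondrial share as a covariate Spi1 was at -0.25 and Id2 at -0.45.

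Plasmacytoid dendritic cells also require IRF8, and 10 of 15 genes of this class were tested, 6 with negative and 4 with positive fold changes (median -0.06) and 0 passed. Bst2, an interferon-induced surface protein gene, measured 114 ± 9.31 CPM in control and 85.2 ± 13.4 in treated libraries (log2 fold change -0.41 ± 0.16). Ly6d measured 1.00 ± 0.813 and 2.20 ± 1.99 CPM (1.13 ± 0.73), with 5.63 CPM in TMA-ARB replicate 6, without which its log2 fold change was 0.43. Siglech, the defining lectin of this cell type, measured 3.37 ± 0.616 and 3.23 ± 1.37 CPM (-0.06 ± 0.38; edgeR adjusted p = 0.997 for all 3).

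**Figure D3:**
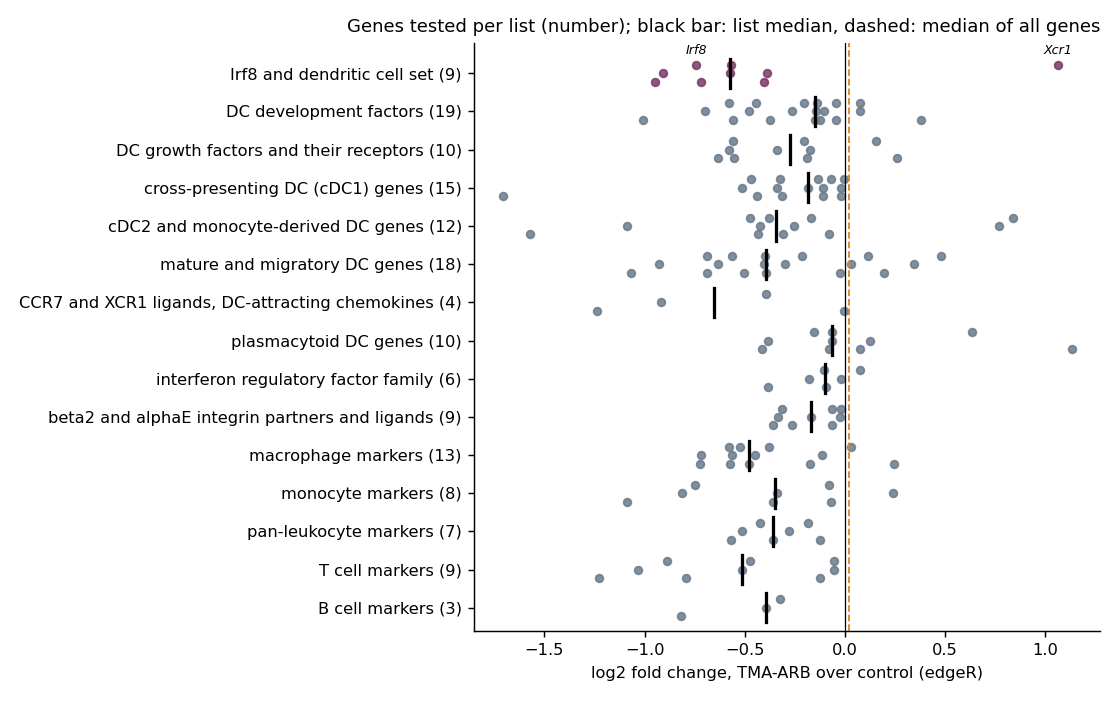
Log2 fold change (TMA-ARB over control) of every tested gene of each list, with the number tested in brackets, black bars for list medians and a dashed line for the median of all tested genes at 0.021. Irf8 and Xcr1 are named in the top row, and the medians of the 9 other dendritic cell lists lie between -0.66 and -0.06.

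Counting each gene once, the 9 other dendritic cell lists held 130 genes, of which 96 were tested. EdgeR called 0 of them, with 6 at an unadjusted p under 0.05, all lower, against 3.25% of all genes tested. DESeq2 also called 0 (8 unadjusted), as did limma-voom (17, against 9.93% of all genes tested). The DESeq2 share over all genes was 3.44%, but over 23981 genes with any count. The 96 list genes had passed the expression filter, so that share is not a like comparison for the 8. Fold changes were negative for 81 and positive for 15, with a median of -0.21 against 0.021 over all tested genes. For markers of other blood cells the list median of the log2 fold change was -0.48 for 13 macrophage genes tested, -0.35 for 8 monocyte genes, -0.19 for 7 neutrophil genes, -0.51 for 9 T cell genes, -1.03 for 6 natural killer cell genes, -0.39 for 3 B cell genes and -0.36 for 7 pan-leukocyte genes. For 5 epithelial genes it was 0.77, the value of Epcam (SE 0.80). Epcam lay below every control in 3 TMA-ARB libraries and above the control mean in 2. The neutrophil genes summed to 302 ± 226 CPM in control and 337 ± 294 in treated libraries, so the sum and the list median differed in sign. Mmp9 held much of these sums and most of their spread, at 95.6 ± 140 and 168 ± 254 CPM.

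Levels of these other cells differed widely between libraries. Summed macrophage markers ran from 3311 to 6629 CPM in controls and from 1628 to 7247 under TMA-ARB, and pan-leukocyte markers from 576 to 896 and from 344 to 784. B cell markers, relevant because B cells make Irf8, summed to 6.89 to 13.5 CPM in controls and 5.92 to 9.39 under TMA-ARB. Pax5, the B cell lineage factor of that list, held 11 counts in all. Controls 1 and 2, the libraries highest in Irf8, Itgax, Ccr7 and Flt3, also stood above the other 3 controls in sums of natural killer, T cell, monocyte, macrophage, neutrophil and pan-leukocyte markers. Natural killer cell markers summed to 104 and 109 CPM there and to 11.1 to 17.4 in the other controls. Prf1 made up most of that sum, at 40.1 ± 47.7 CPM of a control mean of 50.9 ± 50.9. The next gene of the list, Gzma, averaged 3.28 ± 1.23 CPM in controls. T cell markers gave 28 and 25.3 against 14.8 to 15.9, monocyte markers 230 and 206 against 121 to 141, and pan-leukocyte markers 896 and 831 against 576 to 618. The part of macrophages and other leukocytes in the Irf8 values was not tested.

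**Figure D4:**
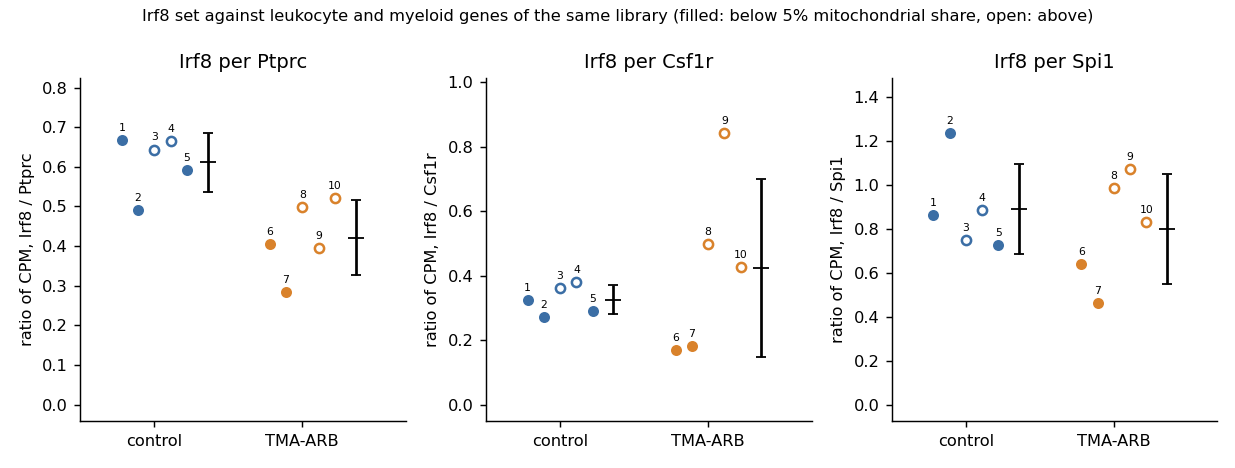
Irf8 CPM divided by that of Ptprc, Csf1r or Spi1 in the same library, with replicate numbers, filled points below a 5% mitochondrial share, open points above, and bars for mean ± SD (n = 5). Per Ptprc 3 of the TMA-ARB libraries lie below all controls, and per Csf1r the TMA-ARB libraries lie on both sides of them.

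Set against other genes of the same library, the size and the sign of the Irf8 difference depended on the denominator. Per Ptprc, the CD45 gene of all leukocytes, the ratio was 0.667, 0.490, 0.644, 0.664 and 0.593 in controls, and 0.406, 0.284, 0.499, 0.396 and 0.521 under TMA-ARB. TMA-ARB replicates 6, 7 and 9 lay below every control, and replicates 8 and 10 lay above control 2 alone. The mean log2 ratio differed by -0.56, beside -0.17 for Ptprc itself.

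Per Csf1r, the receptor gene of macrophages and monocytes, the ratio ran from 0.272 to 0.379 in controls and from 0.168 to 0.843 under TMA-ARB. Below the mitochondrial line the TMA-ARB ratios (0.168 and 0.180) were under all 3 controls, and above it the TMA-ARB ratios (0.426 to 0.843) were over both controls (0.361 and 0.379). Csf1r tracked the mitochondrial share closely, with r = -0.98 over the 10 libraries, whereas Irf8 had r = -0.62. The mean log2 difference was 0.13 per Csf1r, -0.20 per Spi1, 0.09 per Itgax, -0.35 per summed pan-leukocyte markers and -0.20 per summed macrophage markers, beside -0.73 for Irf8 on its own.

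Within the set, Irf8 varied with Itgax more than with the defining genes of cross-presenting dendritic cells. Over the 10 libraries Irf8 correlated with Itgax at r = 0.87 (0.82 with group means removed), with Ccr7 at 0.72 (0.70) and with Zbtb46 at 0.66 (0.65). It correlated with Flt3 at 0.54 (0.36), with Itgae at 0.42 (0.16), with Clec9a at 0.40 (-0.09), with Batf3 at 0.33 (-0.06) and with Xcr1 at -0.54 (0.07). These are descriptions over 10 libraries that share their scaling, and the low counts of Clec9a, Batf3 and Xcr1 limit the size of any correlation.

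The 8 genes most like Irf8, by r of log2 CPM over 10 libraries among 10858 genes with a mean of at least 5 CPM, held no other gene of the dendritic cell lists. Among them were Tnfaip2 (r = 0.94), Adam15 (0.93), Furin (0.93), Trappc12 (0.92), Arid5a (0.91) and Havcr2 (0.90). Havcr2 encodes TIM-3, a surface receptor of dendritic cells, macrophages and T cells. Removing the group means lowered r for each of the 8 except Arid5a, where it rose from 0.91 to 0.96. The lowest r was then 0.75 for Havcr2, and 2 of the 8, Adam15 and Arid5a, stayed among the first 8.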

How the data were processed

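The authors deposited estimated counts per gene, made with Salmon on mm10 per the submitters' processing notes. Neither Salmon's version nor its annotation and strand setting is given in the sources used here. Every value was whole (0 were not), 0 columns were left unmatched, and no 2 of the 10 libraries (45 pairs) held identical values. The genes and lists were chosen with earlier results of these data known.

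Genes were tested in R 4.3.3 with edgeR 4.0.16 (quasi-likelihood F test), after TMM scaling and the default expression filter, with Benjamini-Hochberg adjustment at 0.05 over 14063 genes, a step tested on simulated data. Standard errors are the absolute log2 fold change divided by the square root of F. Log2 CPM used a prior count of 2. Other lists contributed every called gene, or else the 3 genes of smallest p, and 10 fixed partners: Flt3l, Xcl1, Ccl19, Ccl21a, Itgb2, Itgb7, Cdh1, Spi1, Irf4 and Wdfy4. Alternatives were DESeq2 1.42.0, limma-voom 3.58.1 with sample weights, RLE scaling, no filter, a mean of at least 5 CPM, an adjusted p under 0.10, a mitochondrial covariate, mitochondrial genes left out, each side of a 5% mitochondrial share, and each library left out. Leaving libraries out of the mitochondrial share and the totals was added after seeing the data. Library totals were 15151120 ± 1050390 counts in control and 14356860 ± 1133670 in treated libraries (SD, n = 5; exact permutation p = 0.318, 252 arrangements). Poisson intervals (95%) and the floor of 3 counts cover counting error only. Positions and exon lengths are from GENCODE mouse release 21, promoters from RefSeq, and figures from matplotlib 3.10.9. Some items named by these rules are not reported here.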

Additional observations from a re-analysis of the deposited data

Results flagged for a closer look

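In groups of 5 libraries, 14 of 124 groups examined held a library apart from the other 4 by Dixon's criterion (0.71). Chance flags about 1 in 20 groups. None of the 10 dendritic cell genes described above was among them. TMA-ARB replicate 6 stood high for Wdfy4 (16.6 CPM, others 3.40 to 5.92), Tlr12 (3.21, others 0 to 0.591), Ly6d (5.63, others 0.591 to 1.96), Cdh1 (13.9, others 2.59 to 4.72), Irf4 (0.969, others 0 to 0.197) and summed T cell markers (22.1, others 9.93 to 13.1). Control replicate 2 stood high for Ccl3 (12.7 CPM, others 1.51 to 3.68), Ccl4 (10.2, others 1.94 to 4.09) and Itgal (31.0, others 17.9 to 19.98). Control replicate 1 stood low for Irf2 (17.95 CPM, others 26.6 to 29.4) and high for summed neutrophil markers (695 CPM, others 145 to 291). TMA-ARB replicate 7 stood high for the same sum (861 CPM, others 184 to 244). Of the genes in that sum Mmp9 had by far the widest spread between libraries (SD 140 CPM in control, 254 in treated). Ccl21a stood high in control replicate 3 (37.99 CPM, others 0) and in TMA-ARB replicate 10 (29.9 CPM, others 0 to 3.18).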

How the results depend on the processing

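No paired analysis was possible because the replicate numbers run from 1 to 10 and no number is shared between the groups. The number of genes called stayed at 0 in the alternatives run, except for 2 by DESeq2 (Amd2 higher, Hist1h2br lower) and 4 in the libraries above the mitochondrial line (Aqp1, Rcn3 and Lrrc15 lower, Pira2 higher). With a library left out it ran from 0 to 0, and for the other dendritic cell genes it was 0 throughout. For fold changes of the set, 159 alternative values moved by less than 1 SD between libraries of a group (log2 CPM; not the SE of the fold change), and the 5 that moved further are those given above for Batf3 and Clec9a on either side of the mitochondrial line and for Flt3 above it. At a mean of at least 5 CPM only Irf8 and Itgax were tested.

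For the other named genes, 27 values changed sign, none of a called gene, and 555 did not. In the libraries above the mitochondrial line Ccl3 was at 0.32, Irf2 at 0.0177, Itgb7 at 0.35, Nfil3 at 0.25 and Xcl1 at 0.59. Below it Cdh1 was at 0.26, Cx3cr1 at 0.0422, Icam2 at 0.23 and Wdfy4 at 0.10. By limma-voom Ccl5 was at 0.0184, Flt3l at 0.0245 and Itgb7 at 0.0769. With the mitochondrial share as a covariate Itgb2 was at 0.16. Xcl1 was at 0.00897 with RLE scaling and at 0.00395 without mitochondrial genes. With each library left out in turn Irf2 ran from -0.223 to 0.0458 (without TMA-ARB replicate 7), Itgb7 from -0.127 to 0.129 and Xcl1 from -0.15 to 0.181. The causes were not tested. The difference in mitochondrial share ran from 2.69 (without TMA-ARB replicate 9) to 8.38 points with a library left out, and was 8.38 without TMA-ARB replicate 6 (exact permutation p = 0.0397). The difference in library totals ran from -1072260 to -360889 counts. Depth limits Xcr1, Clec9a, Flt3, Irf4 and Cd209a, which rest on under 45 counts in any library.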
